A study of Sus scrofa with 7 samples.

Results

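Heat shock chaperones of the cytosol and the mitochondrion were examined in porcine extra-embryonic endoderm cells (pXEN) and in porcine naïve-like and primed embryonic stem cells (nESCs and pESCs). The set was listed by name as 10 genes: HSPCB (now called HSP90AB1), HSPA8, HSPA4, HSPD1, HSPE1, HSPH1, DNAJA1, DNAJB1, HSPB1 and its transcription factor HSF1. It was chosen by its readout in these libraries, since HSPCB was already known to be high in every library and lower in pXEN cells. Rows were taken by gene symbol, which gave 9 genes of the 29510 listed, and HSPA8 had no row under its symbol. All 9 passed the filter on low counts that left 17447 genes for testing. RNA-seq was made from 1 library per cell line, with 3 pXEN lines, 2 nESC lines and 2 pESC lines. The pXEN lines 1, 2 and 3 (passages 26, 26 and 23) came from inner cell masses of parthenogenetic blastocysts and grew on mitomycin C-inactivated mouse embryonic fibroblasts (MEF) in a medium that held LIF, the GSK3 inhibitor CHIR99021, minocycline hydrochloride, (S)-(+)-dimethindene maleate and Y27632. The nESC lines 1 and 2 (passages 21 and 22) grew on MEF with FGF, LIF, PD0325901, CHIR99021, SB431542 and doxycycline. The pESC lines 1 and 2 (both at passage 20), which the labels say were made by conversion of naïve-like ESCs, grew on STO feeder cells with activin A, bFGF, EGF and LIF. LIF and the use of feeder cells were thus shared by the 3 cell types, but the kind of feeder was not. The other additives, the kind of feeder and the cell type cannot be told apart. No source used here says which nESC line a pESC line came from, or that the lines came from separate embryos, so the p-values measure only the spread between these lines.

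Chaperones bind unfolded or partly folded proteins and release them through cycles of ATP binding and hydrolysis. HSP90 proteins, of which HSPCB is the constitutive cytosolic form and HSP90AA1 the more inducible form, finish the folding of kinases, steroid receptors and other clients together with co-chaperones. HSP70 proteins such as HSPA8 bind short hydrophobic stretches, J proteins such as DNAJA1 and DNAJB1 deliver substrates to them, and the HSP110 proteins HSPA4 and HSPH1 exchange their nucleotide. HSPD1 (HSP60) and HSPE1 (HSP10) form the folding chamber of the mitochondrial matrix, HSPB1 (HSP27) is a small heat shock protein that holds aggregating proteins without ATP, and HSF1 is the transcription factor that induces most of these genes on heat or proteotoxic stress. None of the labels describes a heat treatment. The paper states a culture temperature in its account of pXEN culture but not in that of the ESCs.

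The libraries held from 10408164 to 12995720 counted reads. The cell type labels were checked against marker genes. Of the 7 endoderm markers, GATA4, SOX17, HNF4A and FOXA2 had 2069 to 13964 counts in each pXEN line and at most 21 in any ESC line, and PDGFRA had 515 to 874 against at most 22. GATA6 had 1735 to 3044 counts in the pXEN lines but also 313 to 450 in the ESC lines, and SOX7 had 3, 0 and 0 counts in the pXEN lines and 1 to 3 in the ESC lines, so it did not mark the pXEN cells. The ESC markers were less clear. SOX2 had 1633 to 2729 counts in the ESC lines and 0, 30 and 0 in pXEN1, pXEN2 and pXEN3, and GBX2 had 231 to 444 against 0. SALL4, on the same list, went the other way, with 5212 to 6180 counts in the pXEN lines and 2054 to 2676 in the ESC lines. The paper names SALL4 both among XEN markers and among pluripotency genes. In pXEN1 it supplied 5714 of the 5895 counts of this list. The summed level of the 7 ESC markers with a row was therefore 422 to 566 CPM (counts scaled to a common library total) in the pXEN lines, 367 and 411 CPM in the nESC lines and 670 and 672 CPM in the pESC lines. POU5F1 had at most 5 counts in any library, and NANOG had 0 and 2 counts in the nESC lines, 21 and 22 in the pESC lines and 60 to 177 in the pXEN lines. Whether the gene models of the build set these low counts was not tested, so they do not show that the genes were silent. ESRRB and UTF1 were at 840 to 2043 counts in the pESC lines and at most 26 in the nESC lines. Library pXEN2 stood apart in the 9 fibroblast or feeder markers with a row, whose summed level was 482 CPM, against 10.7 and 28.1 CPM in the other pXEN lines, 37.2 and 40.4 CPM in the nESC lines and 171 and 250 CPM in the pESC lines. In bulk RNA, a smaller share of cells expressing a gene and less RNA per cell cannot be told apart.

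The cytosolic HSP90 gene HSPCB was the most strongly counted of the set in every library, at the lowest level in pXEN cells, at an intermediate level in pESCs and at the highest level in nESCs. HSPCB (ENSSSCG00000001701) lies on the plus strand of chromosome 7, from 45113269 to 45123953 in the Sscrofa10.2 build, and the row covers the whole gene. It received 23712, 32503 and 26127 reads in pXEN1, pXEN2 and pXEN3, 94004 and 87150 in nESC1 and nESC2, and 59315 and 67617 in pESC1 and pESC2. In FPKM, the deposited level per length of gene model and per scaled library total (0.913 to 1.08 times the counted reads, so already adjusted between libraries), it was at 361, 424 and 356 in the pXEN lines, 1162 and 1118 in the nESC lines and 705 and 752 in the pESC lines, and the 3 groups did not overlap. HSPCB alone took between 0.228% of the counted reads (pXEN1, 95% Wilson interval 0.225 to 0.231) and 0.830% (nESC1, 0.825 to 0.836), intervals that cover counting error only. It was the 23rd to 26th most counted gene of the pXEN libraries, the 6th of both nESC libraries and the 9th of both pESC libraries. On the log2 scale, the fitted difference was -1.59 (SE 0.11) for pXEN against nESC and -0.93 (SE 0.11) for pXEN against pESC, that is a 3.01-fold and a 1.90-fold higher level in the ESCs. No p is given for these, because the direction of HSPCB in pXEN cells entered the choice of the set. The choice did not use pESCs against nESCs, but it was made with earlier results of these data known. In that comparison HSPCB fell by 0.66 on the log2 scale (SE 0.13, edgeR adjusted p = 0.00579), or 1.58-fold. Without pESC1 this call was lost, at -0.61 and adjusted p = 0.0541. The row of SLC35B2, on the opposite strand within the span of HSPCB, had 0 counts in every library. How strand was handled in the counting is not given, so this does not show that the HSPCB row is free of SLC35B2 reads.

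**Figure D1:**
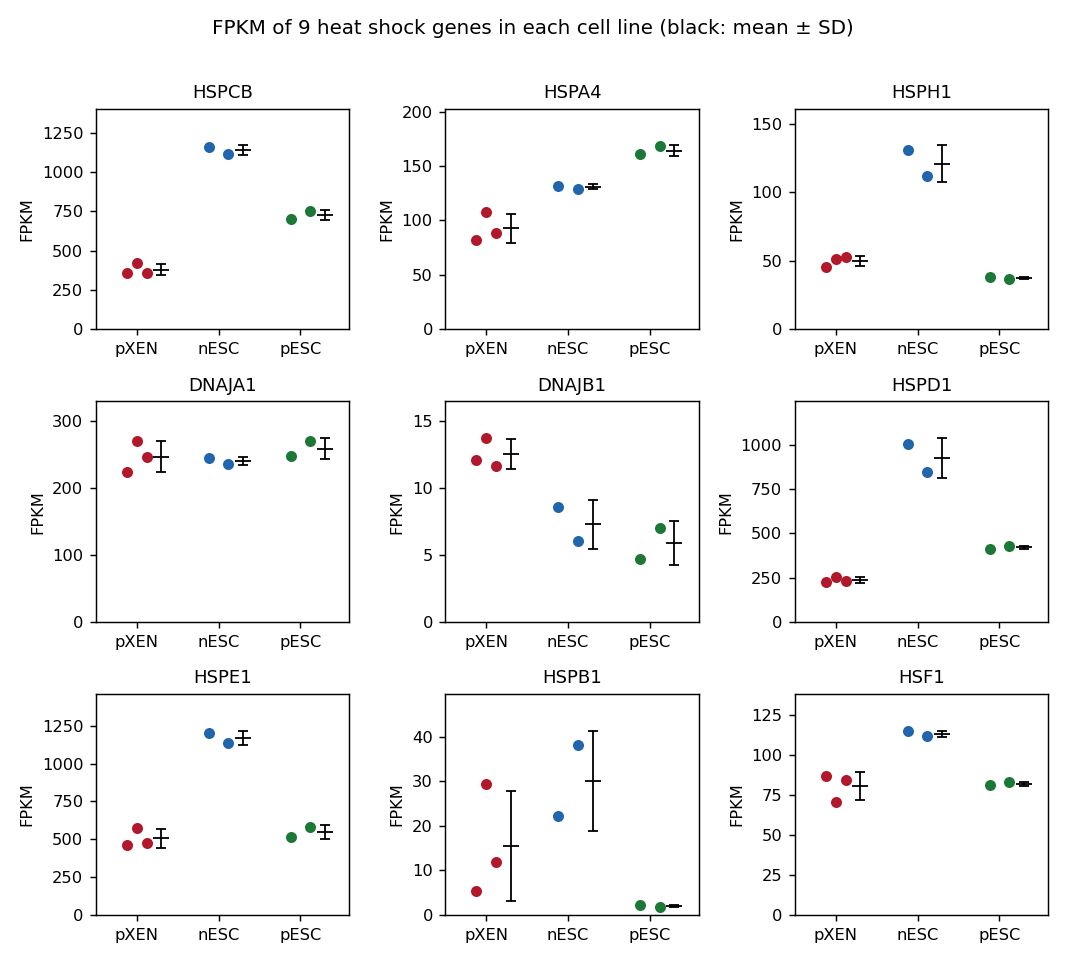
FPKM (vertical axes, from 0) of 9 chaperone genes in each of 7 cell lines, with 1 point per line and the mean ± SD of the group (n = 3 pXEN, 2 nESC, 2 pESC) in black beside the points. HSPCB, HSPD1, HSPE1 and HSPH1 were highest in both nESC lines, DNAJA1 was nearly level, and HSPB1 spread from 5.35 to 29.3 FPKM among the pXEN lines.

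The stress-inducible HSP90 paralogue HSP90AA1 (chromosome 7, not one of the listed genes) was also highest in nESCs, but it did not separate pXEN cells from pESCs. Its level was 539, 619 and 609 FPKM in the pXEN lines, 1338 and 1214 FPKM in the nESC lines and 643 and 589 FPKM in the pESC lines. The pXEN and pESC lines overlapped, and both lay below the nESC lines. HSP90AA1 fell by 1.06 in pESCs against nESCs (log2, SE 0.12, adjusted p = 0.00052) and by 1.12 in pXEN cells against nESCs (SE 0.11, adjusted p = 7.2e-05), while pXEN against pESC gave -0.06 (SE 0.11, adjusted p = 0.699). The balance of the 2 paralogues within a library needs no scaling between libraries. Their listed lengths differ, at 1866 bases for HSP90AA1 and 6664 for HSPCB. The count ratio thus compares libraries and does not show which paralogue was higher. There were 41.8, 40.9 and 47.8 HSP90AA1 counts per 100 HSPCB counts in the pXEN lines, 32.2 and 30.4 in the nESC lines and 25.6 and 21.9 in the pESC lines, with no overlap between the groups. This ratio carries HSPCB, which chose the set, and was not tested.

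The genes of the HSP70 arm differed in pattern. The central one, HSPA8, the constitutive cytosolic HSP70, was found only by identifier: the reference gene table pairs HSPA8 with ENSSSCG00000015140 on chromosome 9, a row without a symbol in the files, so its values are given beside the set and not within it. That row had 83.0, 84.4 and 81.7 FPKM in the pXEN lines, 171 and 123 FPKM in the nESC lines and 91.7 and 71.8 FPKM in the pESC lines. The nESC lines were highest, with a wide gap between them, and the pXEN lines lay within the range of the pESC lines. It fell by 0.86 in pESCs against nESCs (log2, SE 0.18, edgeR adjusted p = 0.00808), a call that was lost without nESC1 (-0.61, adjusted p = 0.0558) or without pESC2 (-0.69, adjusted p = 0.0758). The difference was -0.83 (SE 0.16) for pXEN against nESC and 0.03 (SE 0.16) for pXEN against pESC. Members of the HSP70 family share long near-identical stretches, so reads may be split between rows where the counting did not place them uniquely.

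The HSP110 genes HSPA4 and HSPH1, both nucleotide exchange factors of HSP70, showed different orders of the cell types. HSPA4 (ENSSSCG00000014292, chromosome 2, 140866277 to 140911654) was at 82.1, 108 and 88.4 FPKM in the pXEN lines, 132 and 129 FPKM in the nESC lines and 161 and 168 FPKM in the pESC lines. All pXEN lines were below all nESC lines, and these were below both pESC lines. The log2 difference was -0.50 (SE 0.13) for pXEN against nESC, -0.81 (SE 0.13) for pXEN against pESC and 0.32 (SE 0.14, adjusted p = 0.129) for pESC against nESC. The last value passed the threshold without pXEN2 (0.32, adjusted p = 0.00883) and when only the 2 ESC groups were fitted (0.32, adjusted p = 0.0107). HSPH1 (ENSSSCG00000009334, chromosome 11, 7585525 to 7661067) was at 45.8, 51.4 and 52.7 FPKM in the pXEN lines, 131 and 112 FPKM in the nESC lines and 38.0 and 36.9 FPKM in the pESC lines. Here the pESC lines were lowest. HSPH1 fell by 1.71 in pESCs against nESCs (SE 0.12, adjusted p = 6.99e-05), or 3.26-fold. Over the 15 alternatives this difference lay between -1.81 and -1.59. The pXEN differences were -1.28 (SE 0.11) against nESC and 0.43 (SE 0.11) against pESC. There were accordingly 5.67 and 6.10 HSPA4 counts per HSPH1 count in the pESC lines, 2.40, 2.81 and 2.25 in the pXEN lines and 1.36 and 1.55 in the nESC lines.

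Of the J proteins, DNAJA1, an abundant partner of cytosolic HSP70, was nearly level. DNAJA1 (ENSSSCG00000011000, chromosome 10, 37686862 to 37699607) was at 223, 269 and 246 FPKM in the pXEN lines, 245 and 236 FPKM in the nESC lines and 247 and 269 FPKM in the pESC lines. The pXEN lines spanned both ESC types. The log2 difference was 0.09 (SE 0.12, adjusted p = 0.617) for pESC against nESC, 0.03 (SE 0.11) for pXEN against nESC and -0.06 (SE 0.11) for pXEN against pESC. DNAJB1, a heat-inducible J protein (HSP40), was the lowest or next to lowest gene of the set, and it was the only one highest in all 3 pXEN lines. Its row by symbol (ENSSSCG00000024464) lies on an unplaced scaffold, JH118961.1, and had 121, 160 and 129 counts in the pXEN lines, 105 and 71 in the nESC lines and 60 and 96 in the pESC lines. In FPKM the pXEN lines were at 12.1, 13.7 and 11.6, the nESC lines at 8.56 and 6.01 and the pESC lines at 4.70 and 7.04, so that the ESC types overlapped. The log2 difference was -0.32 (SE 0.30, adjusted p = 0.445) for pESC against nESC, 0.77 (SE 0.27) for pXEN against nESC and 1.10 (SE 0.27) for pXEN against pESC. A second row, ENSSSCG00000013784 on chromosome 2, is paired with DNAJB1 by the reference table and had more reads, 486, 711 and 579 in the pXEN lines, 414 and 396 in the nESC lines and 409 and 422 in the pESC lines. On that row too every pXEN line was above every ESC line, with 0.68 (SE 0.14) against nESC, 0.79 (SE 0.14) against pESC and -0.11 (SE 0.15, adjusted p = 0.621) between the ESC types. Since both rows may belong to 1 gene, reads may be split between them, and the level of DNAJB1 is uncertain.

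The mitochondrial chaperonin pair was highest in nESCs, and its subunits differed in how pXEN cells compared with pESCs. HSPD1 (ENSSSCG00000016077, chromosome 15, 112534190 to 112547852, minus strand) and HSPE1 (ENSSSCG00000016078, chromosome 15, 112548610 to 112550291, plus strand) lie head to head, with 758 bases between their listed starts. HSPD1 was at 226, 256 and 232 FPKM in the pXEN lines, 1003 and 846 FPKM in the nESC lines and 414 and 427 FPKM in the pESC lines. The 3 groups did not overlap and took the same order as for HSPCB. HSPE1 was at 465, 576 and 475 FPKM in the pXEN lines, 1201 and 1135 FPKM in the nESC lines and 514 and 578 FPKM in the pESC lines. Both nESC lines were above all others, and pXEN and pESC lines overlapped. In pESCs against nESCs HSPD1 fell by 1.15 (log2, SE 0.12, adjusted p = 0.000436), or 2.22-fold, and HSPE1 by 1.11 (SE 0.14, adjusted p = 0.000844), or 2.16-fold. Over the 15 alternatives the difference lay between -1.26 and -1.03 for HSPD1 and between -1.2 and -1.02 for HSPE1. For pXEN against nESC the difference was -1.96 (SE 0.11) for HSPD1, a 3.90-fold higher level in nESCs, and -1.21 (SE 0.12) for HSPE1. For pXEN against pESC it was -0.81 (SE 0.11) for HSPD1 and -0.10 (SE 0.13) for HSPE1. Within each library there were 2.23, 2.04 and 2.24 HSPD1 counts per HSPE1 count in the pXEN lines, 3.83 and 3.42 in the nESC lines and 3.70 and 3.39 in the pESC lines. The ratio was thus lower in every pXEN line than in every ESC line, and it overlapped between the ESC types. In FPKM, with listed lengths of 2522 and 550 bases, HSPD1 was below HSPE1 in every library, at ratios from 0.445 (pXEN2) to 0.835 (nESC1).

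**Figure D2:**
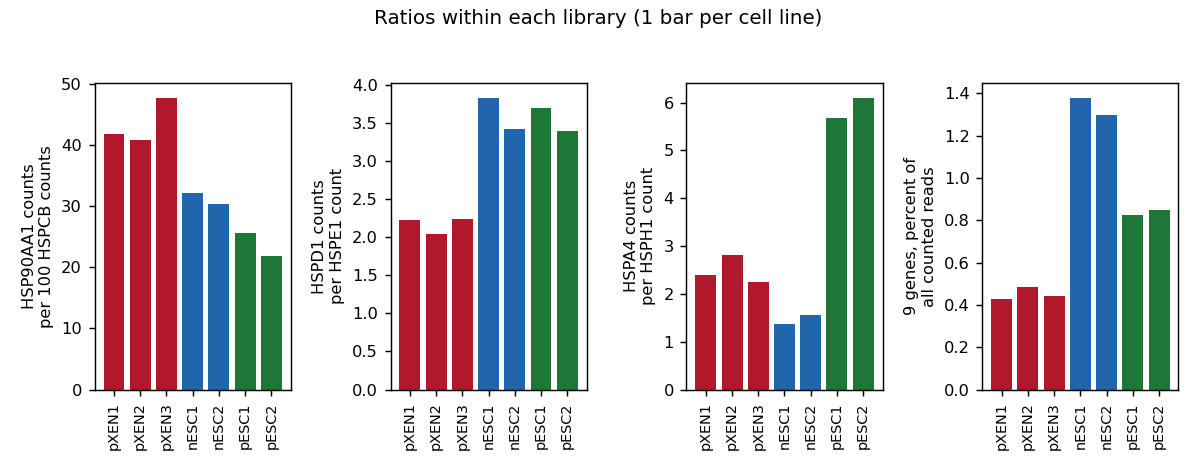
Ratios within each of 7 libraries, with 1 bar per cell line and all axes from 0: HSP90AA1 per 100 HSPCB counts, HSPD1 per HSPE1 count, HSPA4 per HSPH1 count, and the counts of the 9 genes together as a percent of all counted reads. The first ratio is highest in the pXEN lines (40.9 to 47.8) and the second is lowest there (2.04 to 2.24), while the third is highest in the pESC lines (5.67 and 6.10).

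The small heat shock protein gene HSPB1 was low and varied widely among the pXEN and nESC lines. HSPB1 (ENSSSCG00000028568, chromosome 3, 10049289 to 10050925) had 47, 301 and 116 counts in the pXEN lines, 240 and 397 in the nESC lines and 24 and 22 in the pESC lines. In FPKM it was at 5.35, 29.3 and 11.8 in the pXEN lines, 22.2 and 38.1 in the nESC lines and 2.13 and 1.83 in the pESC lines. Both pESC lines were below every other line, and pXEN2 lay within the range of the nESC lines. HSPB1 fell by 3.93 in pESCs against nESCs (log2, SE 0.77, adjusted p = 0.00654), and the call was lost without pESC1 (-4.04, adjusted p = 0.0539) or without pESC2 (-3.82, adjusted p = 0.0611). The pXEN differences were -0.95 (SE 0.58) against nESC, with overlap, and 2.98 (SE 0.73) against pESC. Without pXEN2 they were -1.81 and 2.13, without pXEN1 the former was -0.55, and without nESC2 it was -0.51. The library highest in HSPB1 among the pXEN lines, pXEN2, was also the one with 482 CPM of fibroblast or feeder markers. The pESC lines had 171 and 250 CPM of these markers and the lowest HSPB1 levels. These sums rest on unlike genes and are not comparable. COL3A1 had 4251 counts in pXEN2 and 12 and 29 in pESC1 and pESC2, while S100A4 had 22 against 584 and 780. The part of other cells in the HSPB1 value of pXEN2 was not tested. A second HSPB1 row of the same listed length, 121790 bases away on chromosome 3, had 4, 32 and 5 counts in the pXEN lines, 42 and 0 in the nESC lines and 3 and 0 in the pESC lines. The rows may be copies that share reads, and their summed counts were 51, 333 and 121 in the pXEN lines, 282 and 397 in the nESC lines and 27 and 22 in the pESC lines.

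HSF1, the factor that induces this program, lay at overlapping levels in pXEN cells and pESCs and was higher in nESCs. HSF1 (ENSSSCG00000005917, chromosome 4, 610323 to 633308) was at 86.9, 70.4 and 84.2 FPKM in the pXEN lines, 115 and 112 FPKM in the nESC lines and 81.3 and 83.0 FPKM in the pESC lines. The pESC lines lay within the range of the pXEN lines. HSF1 fell by 0.48 in pESCs against nESCs (log2, SE 0.12, adjusted p = 0.0195). This call was lost when any 1 ESC library was left out, with -0.47 without nESC1 (adjusted p = 0.0928), -0.49 without nESC2 (0.0748), -0.46 without pESC1 (0.127) and -0.49 without pESC2 (0.107). The difference was -0.50 (SE 0.11) for pXEN against nESC and -0.02 (SE 0.11) for pXEN against pESC. HSF1 acts mainly through activation of its protein, which these data do not measure.

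Of the 9 genes, 6 fell in pESCs against nESCs (HSPCB, HSPD1, HSPE1, HSPH1, HSPB1 and HSF1) and 3 were not called. Over all genes tested, 13.3% were lower and 19.0% higher in pESCs. None of the 9 was called higher by edgeR, at an unadjusted p under 0.05, by DESeq2 or by limma, while HSPA4 was called without pXEN2. The count of 6 was smaller in each fit without 1 ESC line. Such a fit leaves 1 line in that group, and fewer of all genes tested were called there too. The median of the 9 log2 differences was -0.66, against 0.01 over all genes tested. In pXEN cells against nESCs, 6 of the 9 were called lower and 1 higher (DNAJB1), where 26.2% of all genes were lower and 28.3% higher, and the median was -0.95 against 0.00. The call of DNAJB1 was lost without any 1 of the pXEN lines or without nESC2, which left 0 genes called higher. In pXEN cells against pESCs, 3 were called lower (HSPCB, HSPA4 and HSPD1) and 3 higher (HSPH1, DNAJB1 and HSPB1), where 24.4% of all genes were lower and 23.9% higher, and the median was -0.06 against -0.01. The 3 higher calls were 0 without pESC1, 1 without pESC2, and 2 with library totals or with a replicate block. Nothing is read from the pXEN counts, since the set was selected on that contrast. The 3 comparisons share their libraries and are not independent.

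**Figure D3:**
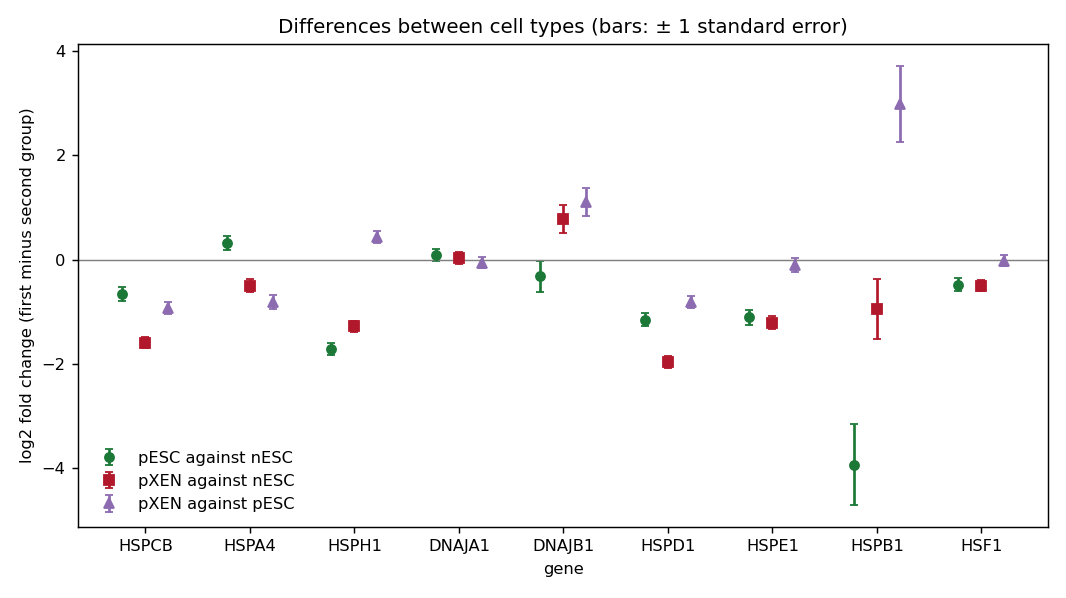
Log2 fold change (first minus second group) of 9 chaperone genes in 3 comparisons, with bars of ± 1 standard error from edgeR. HSPCB and HSPD1 lie below 0 in all 3 comparisons, DNAJA1 lies near 0, and HSPB1 runs from -3.93 to 2.98 with the widest bars.

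The 9 genes together took 0.427% (pXEN1, 95% Wilson interval 0.423 to 0.431) to 0.484% of the counted reads of the pXEN lines, 1.30% and 1.38% of those of the nESC lines and 0.824% and 0.847% of those of the pESC lines. HSPCB made up 51.6% to 53.4% of these reads in the pXEN lines and 60.2% to 61.8% in the ESC lines. Per length of gene model, HSPE1 led in the pXEN lines at 505 ± 61.0 FPKM (SD, n = 3), followed by HSPCB at 380 ± 37.6 FPKM and by DNAJA1 and HSPD1, whose lines overlapped. In the nESC lines HSPE1, at 1168 ± 47.0 FPKM (n = 2), and HSPCB, at 1140.1 ± 31.0 FPKM, overlapped and stood above HSPD1 at 925 ± 111 FPKM, with DNAJA1 next. In the pESC lines HSPCB, at 728 ± 33.6 FPKM (n = 2), was above HSPE1 at 546 ± 45.0 FPKM and HSPD1 at 421 ± 8.94 FPKM. HSPA4, HSF1 and HSPH1 followed in each cell type. HSPA4 and HSF1 overlapped in the pXEN lines, and HSPH1 overlapped both of them in the nESC lines. HSPB1 and DNAJB1 were last everywhere. The listed length of HSPCB was 6664 bases, over a gene span of 10685, against 1866 bases for HSP90AA1, so the FPKM of HSPCB depends on that gene model.

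Genes that work with the set were taken from 9 lists of paralogues, partners and related chaperones, with 118 genes in all, of which 94 were tested. The lists too were chosen with earlier results of these data known. Of the tested genes, 11 stand in 2 lists: TRAP1, HSP90AA1, FKBP4, CHORDC1, HSPA4L, HSPA9, BAG3, DNAJB4, SERPINH1, HSPB8 and CRYAB. The shares called in each list are given beside those over all genes tested, and nothing is read from a share near the latter. A fit without 1 ESC line leaves 1 line in that group. It called fewer of all genes tested in the comparisons of that group, so nothing is read from a smaller count there. Of 11 HSP90 paralogues and co-chaperones, 8 fell and 0 rose in pESCs against nESCs (median log2 difference -0.62), and 9 fell and 0 rose in pXEN cells against nESCs (-0.91). These were 72.7% and 81.8% of the list, against 13.3% and 26.2% of all genes tested. At an unadjusted p under 0.05, by DESeq2 and by limma, 0 were higher in both as well. The former count was 4 without pESC1, 5 without nESC1 or pESC2, and 1 gene rose without pXEN2. In pXEN cells against pESCs 4 fell and 2 rose (-0.30), or 36.4% and 18.2% against 24.4% and 23.9% of all genes, the 4 being 2 without pESC1 or pESC2. The 2 that rose, FKBP4 (log2 0.32) and PTGES3 (0.32), were lost without pXEN1, nESC1, pESC1 or pESC2, with upper-quartile scaling (0.24 for both, adjusted p = 0.0692 and 0.0588) and with library totals (0.15 for both, adjusted p = 0.212 and 0.177).

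Among these partners, PPID, a cyclophilin co-chaperone of HSP90, stepped down in the order of HSPCB. It was at 145 ± 16.1 FPKM in nESCs, 80.9 ± 3.80 FPKM in pESCs and 50.7 ± 0.751 FPKM in pXEN cells, and fell in each comparison (log2 -0.85, adjusted p = 0.00113 for pESC against nESC, -1.52, adjusted p = 1.26e-05 for pXEN against nESC, and -0.67, adjusted p = 0.00117 for pXEN against pESC). FKBP4, the immunophilin that joins HSP90 to steroid receptors, fell by 1.01 in pESCs against nESCs (adjusted p = 0.000515). FKBP5, its counterpart in the same receptor complexes, fell by 1.13 in pXEN cells against nESCs (adjusted p = 0.00433) and by 1.60 against pESCs (adjusted p = 0.000923). TRAP1, the mitochondrial HSP90, fell by 0.79 in pESCs (adjusted p = 0.000934) and by 1.09 in pXEN cells (adjusted p = 3.59e-05), both against nESCs. SUGT1, an HSP90 partner, fell by 0.86 in pESCs against nESCs (adjusted p = 0.00737), a call lost without nESC1, pESC1 or pESC2. CDC37, which brings kinases to HSP90, fell by 0.41 in pXEN cells against pESCs (adjusted p = 0.038), a call lost without any 1 library except pXEN2 and with a replicate block.

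The list of 15 HSP70 paralogues and exchange factors split. In pESCs against nESCs 6 fell and 1 rose (median -0.25), in pXEN cells against nESCs 8 fell and 3 rose (-0.41), and in pXEN cells against pESCs 4 fell and 4 rose (-0.10). The shares lower were 40.0%, 53.3% and 26.7%, against 13.3%, 26.2% and 24.4% of all genes, and those higher were 6.67%, 20.0% and 26.7%, against 19.0%, 28.3% and 23.9%. The 6 were 2 without nESC1, and 3 without pESC1 or pESC2. HSPA2, the HSP70 best known from male germ cells, was at 20.5 ± 0.0214 FPKM in nESCs, 12.7 ± 1.16 FPKM in pESCs and 0.890 ± 0.250 FPKM in pXEN cells, and fell by 4.52 in pXEN cells against nESCs (adjusted p = 2.58e-06) and by 3.81 against pESCs (adjusted p = 8.32e-06). Over the 15 alternatives these HSPA2 differences ranged from -4.78 to -3.52 and from -4.08 to -2.86. HSPA4L, another HSP110 gene, was at 21.5 ± 1.75 FPKM in nESCs, 4.21 ± 0.424 FPKM in pESCs and 1.48 ± 0.171 FPKM in pXEN cells, and fell by 2.36 in pESCs against nESCs (adjusted p = 7.67e-05), fell by 3.85 in pXEN cells against nESCs (adjusted p = 1.89e-06) and fell by 1.49 in pXEN cells against pESCs (adjusted p = 0.000255). HSPA12B, a distant HSP70 relative, went the other way in pESCs, at 16.9 ± 0.0631 FPKM against 1.56 ± 1.02 FPKM in nESCs and 0.164 ± 0.156 FPKM in pXEN cells. It rose by 3.41 in pESCs against nESCs (adjusted p = 0.00381), and by 4.30 without nESC1, the nESC lines having only 62 and 22 counts. HSPA9, the HSP70 of the mitochondrial matrix, fell by 0.64 in pXEN cells against nESCs (adjusted p = 0.00156). HSPA14, an HSP70 that works at the ribosome, fell by 0.83 in pESCs against nESCs (adjusted p = 0.0318), a call lost without nESC1, nESC2 or pESC2.

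A few genes, among them the inducible BAG3, were highest in pXEN cells. A row on scaffold GL896522.1 (ENSSSCG00000030368), which the reference table names HSPA1L and the description in the files calls an HSP70 protein 1B, had 976, 1953 and 1526 counts in the pXEN lines, 698 and 508 in the nESC lines and 767 and 742 in the pESC lines. Every pXEN line was above every ESC line. It rose by 1.42 in pXEN cells against nESCs (log2, SE 0.24, adjusted p = 0.00136) and by 1.24 against pESCs (SE 0.23, adjusted p = 0.00315), while pESC against nESC gave 0.18 (SE 0.25, adjusted p = 0.617). Which of the near-identical HSP70 genes its reads came from is uncertain, and so is whether the row is an inducible gene. BAG3, an exchange factor induced by HSF1, was at 32.4 ± 2.55 FPKM in pXEN cells, 17.4 ± 1.85 FPKM in nESCs and 13.8 ± 0.668 FPKM in pESCs, and rose by 0.89 against nESCs (adjusted p = 0.000641) and by 1.23 against pESCs (adjusted p = 0.000169). CHORDC1, an HSP90 partner, fell by 0.91 in pXEN cells against nESCs (adjusted p = 0.00108). The list of 11 other heat-inducible genes as a whole did not lean one way, with 4 higher and 5 lower in pXEN cells against nESCs (median 0.11), 4 higher and 2 lower against pESCs (0.32) and 2 higher and 4 lower in pESCs against nESCs (-0.35). In that order 36.4%, 36.4% and 18.2% were higher, against 28.3%, 23.9% and 19.0% of all genes, and 45.5%, 18.2% and 36.4% were lower, against 26.2%, 24.4% and 13.3%. The 4 higher against pESCs were 2 without nESC1, pESC1 or pESC2, and the 2 lower there were 1 without pESC1 or pESC2. In pESCs against nESCs the 2 higher were 1 without nESC1, nESC2 or pESC1.

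The mitochondrial list had medians below 0 in the 3 comparisons, as HSPD1 did. Of 16 chaperones and proteases, 0 rose by edgeR in any comparison, and 6, 11 and 6 fell in pESCs against nESCs, pXEN cells against nESCs and pXEN cells against pESCs (medians -0.37, -0.76 and -0.33). These were 37.5%, 68.8% and 37.5% of the list, against 13.3%, 26.2% and 24.4% of all genes. An unadjusted p under 0.05 and limma each gave 1 higher gene in pXEN cells against pESCs, edgeR did so without pXEN2, and DESeq2 gave 0 in all. The first count of 6 was 1 without nESC1, pESC1 or pESC2, and the last was 3 without either pESC line and 9 without pXEN2. TIMM44, which ties the matrix HSP70 to the import channel, fell by 1.11 in pXEN cells against nESCs (adjusted p = 0.000735). Its fall of 0.66 in pESCs against nESCs (adjusted p = 0.0248), like that of 0.57 in GRPEL1 (adjusted p = 0.0105), the exchange factor of HSPA9, was lost without nESC1, pESC1 or pESC2. The inner membrane protease AFG3L2 fell there by 0.48 (adjusted p = 0.0141), a call lost without any 1 ESC line. DNAJC11, a J protein of the mitochondrial membranes, was at 29.4 ± 0.786 FPKM in pXEN cells, 59.2 ± 2.59 FPKM in nESCs and 49.5 ± 0.272 FPKM in pESCs, and fell in pXEN cells by 1.01 against nESCs (adjusted p = 8.21e-05) and by 0.74 against pESCs (adjusted p = 0.000571). The matrix protease subunit CLPP fell in pXEN cells by 0.99 (adjusted p = 0.000623) and 0.72 (adjusted p = 0.00385) against nESCs and pESCs. In pXEN cells against pESCs its partner ATPase CLPX fell by 0.41 (adjusted p = 0.0265) and the J protein DNAJA3 by 0.48 (adjusted p = 0.0144). Both calls were lost without pESC1 or pESC2, and that of CLPX also without pXEN1 or pXEN3 and with a replicate block.

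The cytosolic chaperonin list showed the same sign. This ring, CCT, folds actin and tubulin with the help of prefoldin. Of 12 subunits, 5, 8 and 7 fell in pESCs against nESCs, pXEN cells against nESCs and pXEN cells against pESCs (medians -0.37, -0.74 and -0.40), and 0 rose by edgeR, at an unadjusted p under 0.05, by DESeq2 or by limma, although 1 rose in pXEN cells against pESCs without pXEN2. The lower shares were 41.7%, 66.7% and 58.3%, against 13.3%, 26.2% and 24.4% of all genes. The first count was 3 without nESC1 or pESC1, and the last was 4 without pESC2. CCT5 was at 154 ± 2.36 FPKM in pXEN cells, 244 ± 5.18 FPKM in pESCs and 519 ± 27.4 FPKM in nESCs. It fell by 1.10 in pESCs against nESCs (adjusted p = 0.000177), by 1.75 in pXEN cells against nESCs (adjusted p = 3.38e-06) and by 0.65 in pXEN cells against pESCs (adjusted p = 0.000603). The prefoldin subunit PFDN4 fell in pXEN cells by 1.57 against nESCs (adjusted p = 0.00013) and by 1.35 against pESCs (adjusted p = 0.000382). The subunit CCT7 fell by 0.84 (adjusted p = 0.000854) and 1.30 (adjusted p = 1.77e-05) in pESCs and pXEN cells against nESCs. CCT3 fell in pXEN cells by 1.17 against nESCs (adjusted p = 3.26e-05) and by 0.64 against pESCs (adjusted p = 0.00106), and CCT2 fell by 0.71 against pESCs (adjusted p = 0.00189). TCP1 fell by 0.72 in pESCs against nESCs (adjusted p = 0.00206), as did CCT8 by 0.65 (adjusted p = 0.0128), a call lost without nESC1, pESC1 or pESC2.

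The 16 J proteins of cytosol and nucleus gave 4 higher and 5 lower in pESCs against nESCs (median -0.18), 1 higher and 8 lower in pXEN cells against nESCs (-0.48) and 1 higher and 7 lower in pXEN cells against pESCs (-0.35). The higher shares were 25%, 6.25% and 6.25%, against 19.0%, 28.3% and 23.9% of all genes, and the lower ones 31.2%, 50% and 43.8%, against 13.3%, 26.2% and 24.4%. The first pair was 1 and 2 without nESC1, 2 and 3 without nESC2, 1 and 1 without pESC1 and 2 and 2 without pESC2, and the 7 became 4 without pESC1 and 2 without pESC2. The 1 higher against nESCs, DNAJB5, was lost without nESC1, and 2 were higher without pXEN2. DNAJC21, a J protein of ribosome maturation, had log2 differences of -0.83 (adjusted p = 0.00463), -1.45 (adjusted p = 6.73e-05) and -0.62 (adjusted p = 0.00698) in these comparisons. DNAJB2, a J protein best known from neurons, was the 1 gene higher in pXEN cells against pESCs, by 1.10 (adjusted p = 0.00358). Its fall of 0.70 in pESCs against nESCs (adjusted p = 0.0481) was lost under 9 of the 15 alternatives. DNAJC2, which works at the ribosome, fell by 0.99 in pXEN cells against nESCs (adjusted p = 0.000536) and by 0.67 in pESCs against nESCs (adjusted p = 0.012), the latter call being lost without nESC1, pESC1 or pESC2. DNAJB4 fell in pXEN cells by 0.73 against nESCs (adjusted p = 0.0193), which was lost without either nESC line, and by 0.74 against pESCs (adjusted p = 0.0214), which was lost without either pESC line. DNAJC24, of diphthamide synthesis, fell by 0.63 in pXEN cells against pESCs (adjusted p = 0.00505), a call lost without pESC2. DNAJB5 rose by 0.71 in pESCs against nESCs (adjusted p = 0.0179), a call lost without nESC1 or pESC1. Of the 5 genes tested in the list of heat shock factors and their regulators, HSF2, a paralogue of HSF1, was at 24.0 ± 0.0734 FPKM in nESCs, 16.6 ± 0.659 FPKM in pESCs and 13.4 ± 2.31 FPKM in pXEN cells. It fell by 0.84 in pXEN cells against nESCs (adjusted p = 0.00248). The fall of 0.55 in pESCs against nESCs (adjusted p = 0.0433) was lost without pXEN3 (adjusted p = 0.0577), nESC1 (0.148), nESC2 (0.138), pESC1 (0.149) or pESC2 (0.209), without the filter on low counts (0.0509) and with a replicate block (0.0695). In that list 2 genes were lower in pESCs against nESCs, or 3 without pXEN2, 1 without pXEN3 or nESC2 and 0 without nESC1, pESC1 or pESC2. There 1 was lower in pXEN cells against nESCs (2 without pXEN2), and 2 were higher in pXEN cells against pESCs (1 without pESC1 and 0 without pESC2). These were 40.0%, 20.0% and 40.0% of the list, against 13.3%, 26.2% and 23.9% of all genes. One of the last pair, HSF2BP, which binds HSF2, rose by 0.62 (adjusted p = 0.00843), a call lost without pESC2 (adjusted p = 0.0843). The other gene in both pairs was HSF4, a paralogue of HSF1 with 15 to 84 counts, which fell by 2.09 in pESCs against nESCs (adjusted p = 0.00933) and rose by 1.46 in pXEN cells against pESCs (adjusted p = 0.021). Both HSF4 calls were lost without either pESC line, and the former also without nESC1. Of the 4 small heat shock proteins tested beside HSPB1, its paralogue HSPB8, at no more than 2.71 FPKM, was called higher in pXEN cells and in pESCs against nESCs, the latter call being lost without nESC1, nESC2 or pESC1 and by limma. It was 25% of the list in each, against 28.3% and 19.0% of all genes. None was called in pXEN cells against pESCs by edgeR or DESeq2, where an unadjusted p under 0.05 and limma each gave 1.

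The chaperones of the endoplasmic reticulum, where secreted and membrane proteins fold, had medians above 0 in both comparisons with nESCs, where those of the HSP90, HSP70, J protein, mitochondrial and CCT lists were below 0. Of 15 tested, 11 rose in pESCs against nESCs (median 1.41) and 12 in pXEN cells against nESCs (1.06), and 0 fell by edgeR, at an unadjusted p under 0.05, by DESeq2 or by limma. The higher shares were 73.3% and 80.0%, against 19.0% and 28.3% of all genes. In pXEN cells against pESCs 10 fell and 2 rose (median -0.47), or 66.7% and 13.3% against 24.4% and 23.9%, the 10 being 6 without pESC2. The 2 were 1 in every fit that left out 1 library other than pXEN2. HSPA5 (BiP), the HSP70 of this compartment, was at 143 ± 0.792 FPKM in nESCs, 430 ± 31.6 FPKM in pXEN cells and 716 ± 24.3 FPKM in pESCs. It rose by 2.31 in pESCs against nESCs (adjusted p = 1.21e-05) and by 1.59 in pXEN cells against nESCs (adjusted p = 1.28e-05), and fell by 0.73 in pXEN cells against pESCs (adjusted p = 0.000657). SDF2L1, a partner of HSPA5, rose by 3.03 (adjusted p = 0.00092) and 1.70 (adjusted p = 0.00456) in pESCs and pXEN cells against nESCs, and fell by 1.33 in pXEN cells against pESCs (adjusted p = 0.00904), a call lost without pESC2. DNAJC3, a J protein of this compartment, rose by 2.34 in pESCs against nESCs (adjusted p = 7.29e-05) and fell by 0.98 in pXEN cells against pESCs (adjusted p = 0.000991). CRELD2, induced by ER stress, rose by 2.03 (adjusted p = 7.29e-05) and fell by 1.46 (adjusted p = 7.52e-05) there. PDIA4, a disulfide isomerase, rose by 1.61 (adjusted p = 2.93e-05) and 1.86 (adjusted p = 3.2e-06) in pESCs and pXEN cells against nESCs. The collagen chaperone SERPINH1 (HSP47) was at 1149 ± 58.8 FPKM in pXEN cells against 335 ± 0.783 FPKM in nESCs and 333 ± 6.94 FPKM in pESCs, and rose by 1.77 (adjusted p = 5.22e-06) and 1.80 (adjusted p = 8.41e-06) against them.

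**Figure D4:**
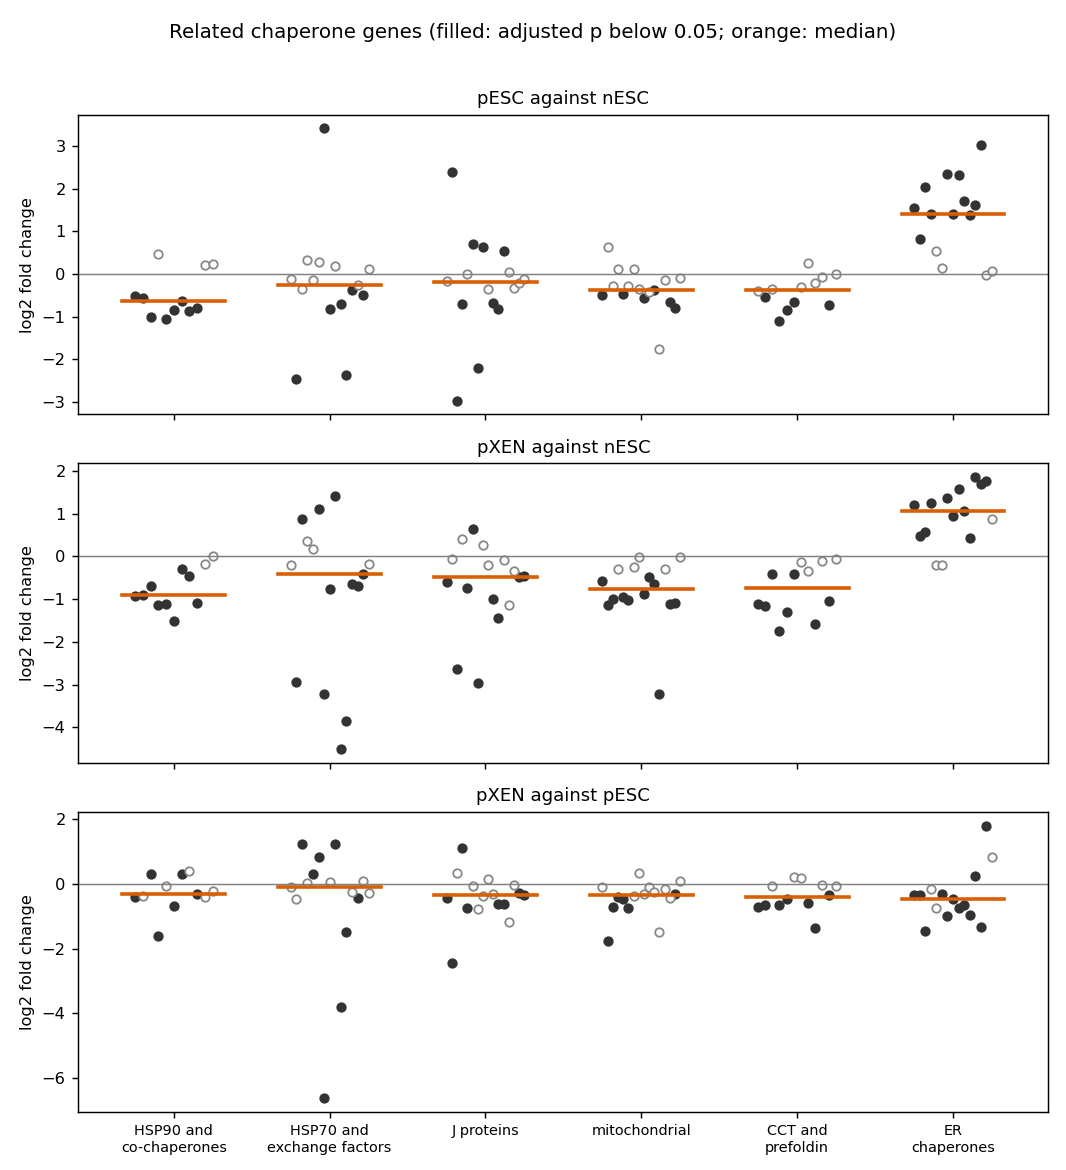
Log2 fold change of related chaperone genes in 6 lists, 1 panel per comparison and 1 point per gene, filled where the edgeR adjusted p was below 0.05 and with the median of the list as an orange line. The medians of the HSP90, mitochondrial and CCT lists lie below 0 in the 3 panels, and that of the endoplasmic reticulum (ER) list is 1.41 and 1.06 in the comparisons with nESC and -0.47 in pXEN against pESC.

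The genes whose levels ran most like HSPCB over the 7 libraries were sought among 4736 tested genes with a symbol and a mean of at least 5 on the log2 CPM scale. By Pearson's r of log2(FPKM + 1), these were NPM1 (0.999), a nucleolar chaperone of ribosome assembly, TUFM (0.999), the mitochondrial translation elongation factor, UTP3 (0.998), a factor of ribosomal RNA processing, G3BP1 (0.998), a stress granule protein, and FBL (0.998), the nucleolar methyltransferase fibrillarin. NPM1 was at 577 to 780 FPKM in the pXEN lines, 1489 and 1708 FPKM in the pESC lines and 2838 and 3043 FPKM in the nESC lines. Among the genes of the set above that level, HSPD1 was the most like HSPCB (r = 0.98, at place 125), followed by HSPE1 (0.864), HSF1 (0.747), HSPA4 (0.737) and HSPH1 (0.636), while DNAJA1 was at 0.0389. DNAJB1 and HSPB1 were below it and were not compared. These values describe 7 points in 3 cell types that share their libraries, and carry no p.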

How the data were processed

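RNA was sequenced from 7 porcine cell lines as rRNA-depleted directional libraries. Per the labels, the authors' processing used HISAT2 2.0.5, featureCounts 1.5.0-p3 and edgeR 3.22.5 with the Sscrofa10.2 build; how strand and multiply mapped reads were handled is not given in the sources used here. The authors deposited raw read counts per gene, without normalization, and FPKM values scaled by gene length and a library total. The counts were tested here with the quasi-likelihood test of edgeR 4.0.16 (R 4.3.3) after TMM scaling and filterByExpr, with all 7 libraries in 1 model, and p-values were Benjamini-Hochberg adjusted over 17447 genes with a threshold of 0.05. The biological coefficient of variation was 0.223. The pipeline was tested on simulated data. FPKM served for levels between genes, and SDs are between lines.

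The members and the lists were chosen with earlier results of these data known. Members taken by symbol are all named, as were HSP90AA1, TRAP1, the HSP70 row on scaffold GL896522.1, HSPA9, HSF2 and paralogues of members such as HSPB8 where a result turned on them. Further genes were named, up to 4 per list and comparison, by the largest change among called genes whose libraries did not overlap and whose log2 CPM averaged 3 or more; 1 gene so chosen is not reported here. A row without a symbol was matched by identifier to the reference gene table.

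Alternatives were DESeq2 size factors, upper-quartile scaling, library totals, no filter, DESeq2 1.42.0, limma 3.58.1 on log2(FPKM + 1), 2 groups only, each library left out, and a block for the replicate number.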

Additional observations from a re-analysis of the deposited data

How the results depend on the processing

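The 9 genes, their partners and the counts of calls were recomputed under 15 alternatives. Of 1845 values of single genes, 1708 kept their direction and side of the threshold or moved by less than the spread between lines, 109 lost and 7 gained a call, 18 moved by more than that spread, and 3 that had a test changed sign. With the values that had none, 11 changed sign in all, 7 of them with 1 library left out and 4 under another scaling, and 0 of the 11 were called with or without the change. DNAJA1 in pXEN against nESC turned from 0.03 to -0.14 with upper-quartile scaling, -0.16 with library totals and -0.04 without pXEN2, and in pXEN against pESC from -0.06 to 0.01 without pXEN1. HSF1 in pXEN against pESC turned from -0.02 to 0.06 without pXEN2, and the HSPA8 row taken by identifier from 0.03 to -0.05, -0.15 and -0.14 with upper-quartile scaling, with library totals and without pESC2. With 1 library left out, HSP90AA1 in pXEN against pESC ranged from -0.13 to 0.01 and the HSPA1L row in pESC against nESC from 0.00 to 0.39. Upper-quartile scaling shifted the median of all genes by -0.09, -0.17 and -0.08 and library totals by -0.02, -0.19 and -0.17 in pESC against nESC, pXEN against nESC and pXEN against pESC, and all values of 1 comparison moved with it. In the pXEN against nESC comparison 0 of the 9 genes were called higher with upper-quartile scaling, with library totals or with the replicate block, and 0 or 1 with 1 library left out. In the pESC against nESC comparison 1 was called higher when only these groups were fitted, 0 or 1 were with 1 library left out, and 3 to 6 were called lower. In pXEN against pESC 0 to 3 were called higher with 1 library left out. Of the 94 related genes, 11 to 37 were lower in pESC against nESC, and 5 to 14 were higher and 20 to 44 lower in pXEN against pESC with 1 library left out, against 30, 12 and 37. Upper-quartile scaling and library totals each gave 7 higher there.

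Lines share only a number: the deviations of lines 1 and 2 from their group means correlated at -0.00892 between nESC and pESC, 0.0173 between nESC and pXEN and 0.0332 between pESC and pXEN. With the replicate block, 5073, 8202 and 6933 genes were called in pESC against nESC, pXEN against nESC and pXEN against pESC, against 5621, 9514 and 8429 without it. At this depth 3 counts stand for 0.231 to 0.288 CPM, so the second HSPB1 row, at 0 in nESC2 and pESC2, allows up to 0.278 and 0.231 CPM there. The rows taken by identifier and the summed HSPB1 rows were chosen after seeing the data.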

Other observations

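Among the 3 pXEN lines, most of the 9 genes varied less than the median gene. The comparison was not matched for count level, so a low spread is not shown to be a trait of these genes. The ratio of the largest to the smallest FPKM was 1.13 for HSPD1, 1.15 for HSPH1, 1.19 for HSPCB and DNAJB1, 1.21 for DNAJA1, 1.23 for HSF1, 1.24 for HSPE1 and 1.31 for HSPA4, against a median of 1.37 over 14993 genes. HSPB1 was the exception at 5.48, above 97.1% of these genes. The HSPA8 row, at 1.03, was above only 1.17% of them. The lines differ in more than 1 respect, and part of this spread is counting error for the low genes.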
